A study of Mus musculus with 2 samples.

Results

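Of the 61263 CTCF peaks that the authors' optimal set holds on chromosomes 1 to 19, 2254 (3.68%) lay in gene deserts. A peak was counted as a desert peak when its summit, the position of highest enrichment, was outside every annotated gene, more than 200 kb from the nearest protein-coding start site, and on a base that is not soft-masked as repeat in the reference genome. Of the autosomal peaks, 24014 had a summit outside all genes and 2656 of these were more than 200 kb from a coding start. Soft-masked summits then removed 402 of the 2656 (15.1%). The comparison class was the 17401 other unmasked peaks outside genes, which lie 200 kb or nearer to a coding start and are called nearer intergenic peaks here. None of these criteria uses the signal, the sequence motif or the strand of a peak.

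The peaks come from CTCF ChIP-seq, in which DNA fragments bound by CTCF are recovered with an antibody and sequenced. The tissue was hindbrain, the future cerebellum, pons and medulla, of newborn B6NCrl mice at postnatal day 0. There is 1 group of 2 libraries, labelled as biological replicates 1 and 2, and no second condition. Both libraries are labelled as the same pool of pulverised hindbrains from several dissections, so the values average over all cell types of the hindbrain, and the spread between the libraries may be technical. The optimal set holds peaks that the authors kept with a filter for reproducibility (irreproducible discovery rate, IDR). How that filter used the 2 libraries is not known here. Each peak carries a deposited signal value, a score without a stated unit that runs higher for stronger peaks. Read counts are not part of these lists and the depth is unknown. All intervals given are 95% intervals that cover counting error over peaks only. Neighbouring peaks share a locus and are not replicates of a condition.

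CTCF is a zinc finger protein that binds a long, directional DNA motif and stops the cohesin complex as it extrudes chromatin loops. Loops in mammalian genomes are held mostly by pairs of CTCF sites whose motifs point towards each other, and such loops set which enhancers can reach which promoters. Gene deserts often flank genes for developmental regulators and neuronal adhesion proteins and can hold distant enhancers of those genes, and CTCF sites inside a desert can bound such a regulatory landscape.

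The sequences below come from 6 of the 11 desert peaks with a motif among the 12 strongest. They are the 4 strongest of the 11 and another 2, Hace1-Grik2 and Adamts16-Irx1, which were chosen for their bounding genes after the values were seen. Each line gives the strand that carries the motif, 5′ to 3′, with the matched CTCF core in capitals and 20 bases of the reference genome (GRCm38, the build called mm10) on each side. A core was the best match to the 14 bp CTCF core consensus, on either strand, lying wholly within 50 bp of the summit with at most 2 mismatches.
Caln1-Galnt17 desert, core at chr5:130853530-130853543, minus strand, 1 mismatch: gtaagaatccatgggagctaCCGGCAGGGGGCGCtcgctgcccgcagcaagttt
Npvf-Nfe2l3 desert, core at chr6:50937308-50937321, minus strand, no mismatch: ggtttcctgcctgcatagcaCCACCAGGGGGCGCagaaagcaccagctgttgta
Matn1-Ptpru desert, core at chr4:131486977-131486990, minus strand, 1 mismatch: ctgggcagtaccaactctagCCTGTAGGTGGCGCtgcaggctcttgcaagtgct
A1bg-Myc desert, core at chr15:61157700-61157713, plus strand, 2 mismatches: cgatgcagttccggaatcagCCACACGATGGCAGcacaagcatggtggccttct
Hace1-Grik2 desert, core at chr10:46012112-46012125, plus strand, 1 mismatch: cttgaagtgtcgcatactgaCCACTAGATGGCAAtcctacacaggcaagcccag
Adamts16-Irx1 desert, core at chr13:71458577-71458590, plus strand, 2 mismatches: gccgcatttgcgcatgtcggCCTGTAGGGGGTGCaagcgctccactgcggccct

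The strongest desert peak, at chr5:130853367-130853734 in the desert between Caln1, a neuronal calcium-binding protein gene, and Galnt17, a gene for a glycosylation enzyme, had a signal value of 617. It ranked 16th among all autosomal optimal peaks, and its signal was 336 in the list of replicate 1 (rank 16) and 286 in that of replicate 2 (rank 14). Its summit lay 405 kb from the start of Caln1 and 6.14 kb outside that gene. The desert next to Npvf, which encodes a neuropeptide precursor, held the only one of the 6 printed cores without a mismatch, in a peak at chr6:50937147-50937478 with a signal of 595 (328 in replicate 1 and 267 in replicate 2). Both peaks were high in both libraries.

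The third in order, at chr4:131486819-131487134, had a signal of 509 and lay 282 kb from Ptpru, a receptor tyrosine phosphatase gene. A second peak among the 12 strongest lay in the same desert with a signal of 485. The peak at chr15:61157561-61157897 (496) lay 235 kb from A1bg, in the desert whose other bounding start is that of Myc, the growth-promoting transcription factor. The peak at chr10:46011986-46012266 (482) lay 335 kb from Hace1 in the desert that ends at Grik2, a kainate-type glutamate receptor gene, and that at chr13:71458453-71458734 (458) lay 501 kb from Irx1, an Iroquois homeobox gene. All of the 12 strongest desert peaks were in the conservative IDR set, and 11 of them held a core. Strong peaks of either class did much the same. In the top decile of signal of all autosomal peaks, 100% of desert and of nearer intergenic peaks were in that set. A core was found there in 89.7% of desert and 90.5% of nearer intergenic peaks. Few desert peaks reached this decile: 116 of 2254 (5.15%, Wilson interval 4.31 to 6.14), against 15.4% of nearer intergenic peaks (14.9 to 16.0).

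Desert peaks were sparse. Their density was 8.24 peaks per Mb of eligible sequence (exact Poisson interval 7.90 to 8.58, over 274 Mb of unmasked bases outside genes and more than 200 kb from a coding start). Nearer intergenic sequence held 36.04 peaks per Mb (35.5 to 36.6, over 483 Mb), which gives a ratio of 0.229 (exact binomial interval 0.219 to 0.239). Against the sequence 50 to 200 kb from a coding start alone the ratio was 0.415 (0.394 to 0.437). Density fell in every step of distance, from 70.2 peaks per Mb within 10 kb of a coding start to 16.6 at 100 to 200 kb, and inside the deserts from 11.97 at 200 to 300 kb through 9.99 at 300 to 500 kb and 5.63 at 500 to 1000 kb to 3.06 beyond 1000 kb. The intervals of these 4 desert classes did not overlap. The desert peaks lay in DNA of low GC content, which fell with distance too. The median GC of the 10 kb around the summit was 42.5% at 200 to 300 kb and 36.5% beyond 1000 kb, against 45.8% for nearer intergenic peaks. Whether GC content has a part in the density was not tested.

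**Figure D1:**
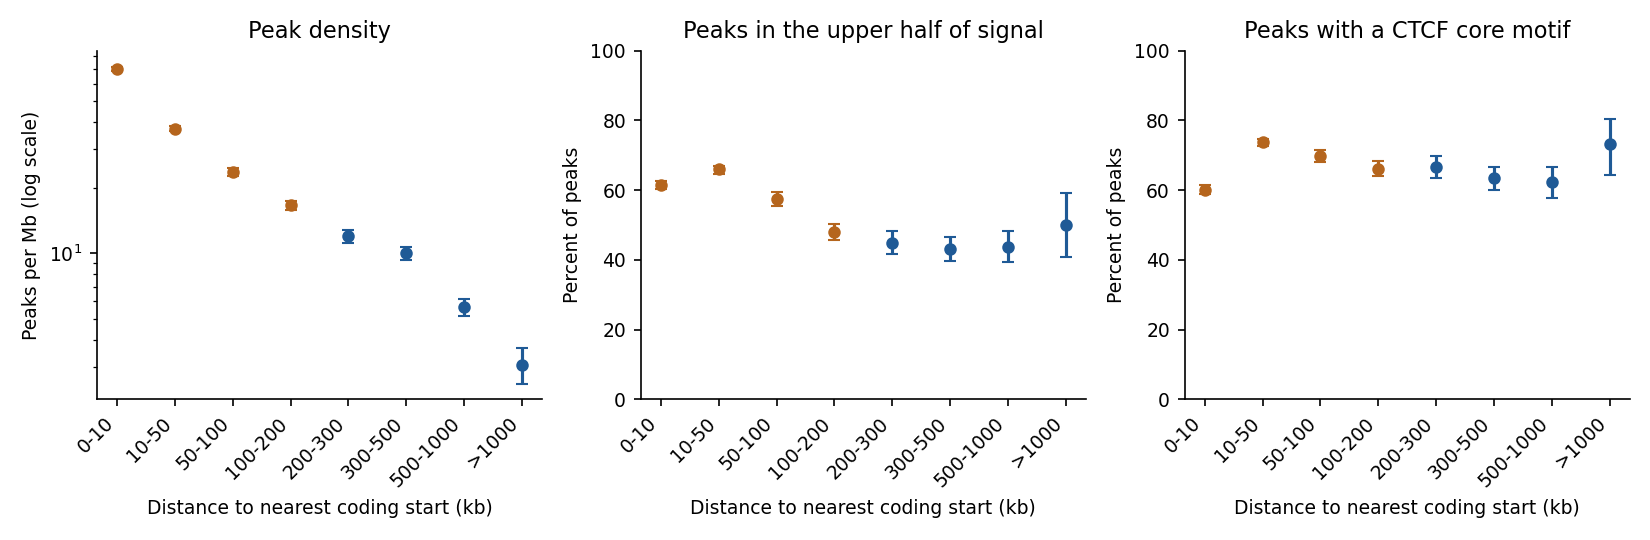
Peaks outside genes by distance of the summit from the nearest coding start (x axis, kb), with desert classes in blue and nearer classes in orange. The panels give peaks per Mb of eligible sequence on a log scale, the percentage of peaks whose signal is above the median of all autosomal optimal peaks, and the percentage with a CTCF core, each with its 95% interval; density falls from 70.2 to 3.06 per Mb over the 8 classes.

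Desert peaks were weaker than peaks nearer to genes. Their median signal was 60.4 (quartiles 33.4 and 144, range 7.04 to 617), against 117 for nearer intergenic peaks (quartiles 44.8 and 261). A signal above the autosomal median of 73.8 was found in 998 of 2254 desert peaks (44.3%, Wilson interval 42.2 to 46.3) and in 10650 of 17401 nearer peaks (61.2%, 60.5 to 61.9). By construction this holds for 50% of all autosomal peaks. The difference was -16.9 percentage points (Newcombe interval -19.1 to -14.7), and it was -17.3 with the signal of either library alone. Among peaks with a core it was -18.8 (-21.5 to -16.2), and against peaks 50 to 200 kb from a coding start -9.07 (-11.6 to -6.51). The ranges of the classes overlapped almost completely. Within the deserts the median signal did not fall further with distance: it was 62.2, 58.5, 57.6 and 74.2 in the 4 classes from 200 to 300 kb to beyond 1000 kb. The farthest class holds 112 peaks in 38 deserts, and the interval of its share above the median (40.9 to 59.1%) includes the shares of the other 3.

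A CTCF core was found in 1464 of 2254 desert peaks (65.0%, Wilson interval 63.0 to 66.9), beside 65.3% of all autosomal optimal peaks and 67.3% of nearer intergenic peaks (66.6 to 68.0). Windows of the same length 1 kb to the left and right of desert summits held one in 1.73% and 1.82% of cases. The core lay close to the summit, at a median of 6.5 bp from centre to summit. The difference between desert and nearer peaks was -2.31 percentage points (Newcombe interval -4.42 to -0.244), and it was not stable. With the single-library lists in place of the optimal set it was -1.62 (without replicate 1) and -1.92 (without replicate 2), with intervals that include 0. Compared within deciles of signal, desert peaks held a core more often, by 5.86 points (3.86 to 7.86), but by 0.843 points (-1.49 to 3.17) when only nearer peaks 50 to 200 kb from a coding start were used. Other comparisons gave a larger deficit. Within deciles of local GC it was -7.05 points (-9.15 to -4.95). With signal left aside, it was -6.73 (-8.85 to -4.66) against nearer peaks over 1 kb from a coding start and -3.29 (-5.72 to -0.877) against those at 50 to 200 kb. The nearer class was itself uneven, with a core in 60.2% of peaks within 10 kb of a coding start and 73.7% at 10 to 50 kb. Desert peaks with a core had a median of 84.9 in signal, against 39.3 where none was found, and the share of desert peaks with a core rose from 34.9% in the weakest decile of signal to 89.7% in the strongest.

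**Figure D2:**
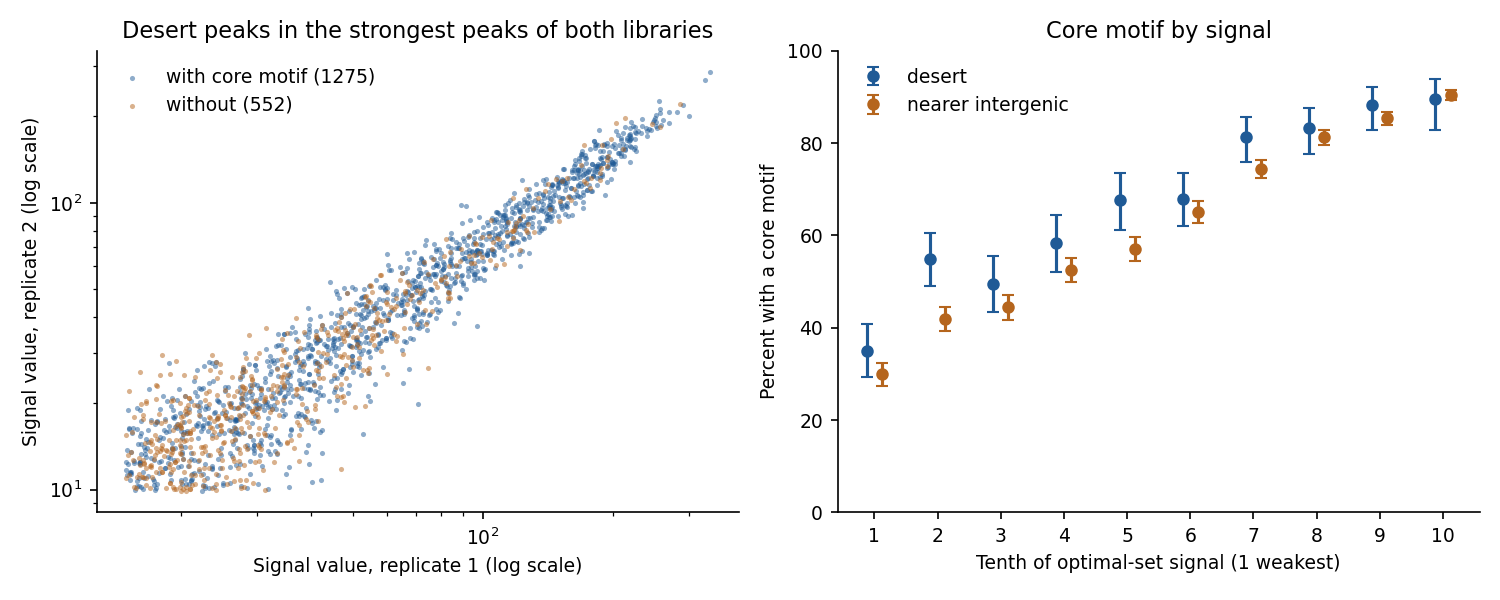
Left, signal of the 1827 desert peaks that overlap the strongest peaks of both libraries, replicate 1 on the x axis and replicate 2 on the y axis (both log scales, each library on its own scale), with and without a core. Right, the percentage of desert and nearer intergenic peaks with a core in each decile of optimal-set signal, with 95% Wilson intervals; in desert peaks it runs from 34.9% to 89.7%.

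The cores of desert peaks were further from the consensus than those of nearer intergenic peaks. A core without mismatch was found in 181 of 2254 desert peaks (8.03%, 6.98 to 9.22), beside 8.71% of all autosomal peaks and 11.7% of nearer peaks (11.3 to 12.2). A core with at most 1 mismatch was found in 32.6%, beside 34.6% of all autosomal peaks and 39.3% of nearer peaks. In both shares desert peaks were closer to all autosomal peaks than nearer peaks were. Counted from 1 at the 5′ end of the core, G at position 13 was present in 39.1% of desert cores and 46.9% of nearer cores (difference -7.88 points, -10.5 to -5.20), and A there in 54.3% against 47.5%. At position 8 A was more frequent in deserts (49.7% against 43.1%) and at position 12 C was less frequent (77.5% against 82.6%). The consensus takes either A or G as a match at positions 8 and 13, and only C at position 12. A CpG dinucleotide, the form in which cytosine can be methylated, stood inside 354 of 1464 desert cores (24.2%, 22.1 to 26.4). The share was 32.6% over all autosomal cores and 37.6% over nearer cores (36.7 to 38.4). Over nearer cores 50 to 200 kb from a coding start it was 30.1%. The 201 bp around desert summits had a median GC of 45.3%, against 50.2%. The part of local GC content in these differences was not tested.

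Exact cores recurred rarely. The 1464 desert matches held 1027 distinct 14 bp cores, of which 789 occurred once. The 3 most frequent are shown with the spread of signal among peaks that share a core.
Core in 11 desert peaks: CCAGCAGATGGCAG
Core in 10 desert peaks: CCACTAGATGGCAG
Core in 9 desert peaks: CCACAAGAGGGAGC
The 11 peaks with the first core lay in 11 deserts on 9 chromosomes and had signals from 22.1 to 237 with a median of 90.3. The 10 peaks with the second lay in 10 deserts, with signals from 36.9 to 344 and a median of 242. The third had a median of 70.6 (20.3 to 178) over 9 deserts. In order, the 3 made up 0.751%, 0.683% and 0.615% of desert cores and 0.393%, 0.598% and 0.179% of nearer ones. They were picked by their count in deserts, which favours a higher desert share. Identical cores thus spanned signals that differed several-fold within deserts.

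A strong peak could also lack a core by this search. Examples were the peaks at chr7:136489000-136489278 (signal 442, in the desert between Mki67, the proliferation marker gene, and Mgmt, a DNA repair gene) and chr13:15759157-15759435 (435, between Gli3, a Hedgehog pathway factor, and Inhba, an activin subunit gene). The first ranked 826 in replicate 1 and 1677 in replicate 2, and the other 1248 and 1419. The reference plus strand from 50 bp before to 50 bp after each summit is shown because no window of 14 bases in it, on either strand within 50 bp of the summit, came closer than 3 mismatches.
Mki67-Mgmt summit window: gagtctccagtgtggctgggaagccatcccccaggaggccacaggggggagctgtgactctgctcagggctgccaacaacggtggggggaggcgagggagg
Gli3-Inhba summit window: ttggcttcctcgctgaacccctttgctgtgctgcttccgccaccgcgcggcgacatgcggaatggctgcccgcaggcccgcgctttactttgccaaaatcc
A consensus search with a fixed number of mismatches misses degenerate sites, so the absence of a match says only that these letters were not found.

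Most desert peaks overlapped the strongest peaks of each library. The optimal set was drawn from these same 2 libraries with a reproducibility filter, so overlap and rank agreement with them are in large part fixed in advance. Of the 2254, 1827 (81.1%, Wilson interval 79.4 to 82.6) overlapped one of the 62686 strongest peaks of both libraries, beside 83.2% of all autosomal optimal peaks and 87.5% of nearer intergenic peaks. A further 176 did so in replicate 1 only, 147 in replicate 2 only and 104 in neither. The difference of -6.40 points to nearer peaks (-8.14 to -4.76) was 0.949 points (-0.0578 to 1.96) when peaks were compared within deciles of signal. Above the autosomal median of signal nearly every peak of either class was in both libraries, with 998 of 998 desert and 10646 of 10650 nearer peaks. Ranks in the libraries had a Spearman rho of 0.946 over the 1827 desert peaks, a description across peaks that share both libraries. The summit moved by a median of 10 bp between libraries and by at most 50 bp in 97.04% of the 1827. The conservative IDR set kept 1949 desert peaks (86.5%, 85.0 to 87.8), beside 87% of all autosomal peaks and 90.2% of nearer peaks, and this difference also turned positive within deciles of signal (1.89 points, 0.653 to 3.12).

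Candidate peaks were counted in the pooled list, which holds the peaks called on both libraries together before the reproducibility filter. The desert rule found 12479 candidates there, of which the 2254 desert peaks are 18.1% (17.4 to 18.7). The share was 24.8% over all autosomal candidates and 29.5% (29.2 to 29.9) over nearer intergenic ones, a difference of -11.5 points (-12.2 to -10.7). Within deciles of pooled signal it was -0.0191 points (-0.342 to 0.304). In the decile from 20.7 to 46.1, where the outcome was most mixed, 67.6% of desert and 67.2% of nearer candidates were kept.

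Desert peaks stood alone more often, which is in part another view of their lower density. Whether isolation differs beyond the density was not tested. No other optimal summit lay within 10 kb of 1620 of 2254 desert peaks (71.9%, 70.0 to 73.7), beside 37.7% of all autosomal peaks and 37.7% of nearer intergenic peaks (37.0 to 38.5), a difference of 34.1 points (32.1 to 36.1). Against peaks 50 to 200 kb from a coding start, of which 54.7% were isolated, the difference was 17.2 points (14.8 to 19.5). None lay within 100 kb of 490 desert peaks (21.7%, 20.1 to 23.5), against 1.90% of nearer peaks. The median distance to the nearest summit was 29.4 kb in deserts and 6.20 kb nearer to genes. The most isolated desert peak was at chr12:62893308-62893627, in the desert between Lrfn5, a synaptic adhesion gene, and Fscb. Its nearest summit was 1067 kb away, its signal was 23.6 (17.8 in replicate 1 and 13.6 in replicate 2), and it held no core. At the other end, 121 desert peaks (5.37%, 4.51 to 6.38) had another summit within 1 kb. This was less common than over all autosomal peaks (12.05%) and nearer intergenic peaks (12.3%, 11.8 to 12.8). Over peaks 50 to 200 kb from a coding start the share was 6.78% (6.06 to 7.58).

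The direction of the motifs was compared between neighbouring desert peaks with a core, taken in order along the chromosome with no other core-bearing peak between them. Of 788 such desert pairs, 488 pointed in the same direction (61.9%, 58.5 to 65.3), 145 were convergent, with motifs pointing towards each other (18.4%, 15.9 to 21.3), and 155 divergent (19.7%, 17.04 to 22.6). Among 5557 pairs of nearer intergenic peaks the shares were 54.8%, 20.3% and 24.9%. The same-direction share was higher in deserts by 7.17 points (3.49 to 10.7). The convergent share differed by -1.90 points (-4.67 to 1.14), with a turn of sign to 0.241 without replicate 2, and, compared within bins of the distance between the pair, by -5.88 points (-9.14 to -2.62). Pairs lay a median of 72.7 kb apart in deserts and 16.5 kb apart nearer to genes.

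The difference was largest between pairs 100 to 200 kb apart. There 22 of 133 desert pairs were convergent (16.5%, 11.2 to 23.8) against 113 of 390 nearer pairs (29.0%, 24.7 to 33.7), and 70.7% against 53.8% pointed the same way. Under 50 kb the intervals of all 3 differences included 0 in each bin. In nearer sequence the convergent share rose with distance from 17.5% under 5 kb to 30.3% beyond 200 kb, while in deserts it was between 12.7% and 21.8% in every bin. Against pairs of peaks 50 to 200 kb from a coding start, in the same bins, the differences were -2.07 points for convergent (-6.70 to 2.56) and 2.55 points for same-direction pairs (-2.94 to 8.04), so desert pairs were not distinguished from pairs in the adjacent sequence at this number of pairs. With 1 library alone the same-direction difference was 4.61 points (without replicate 2) and 5.26 (without replicate 1). The outermost cores of each desert were also read: of 638 first and last cores in 319 deserts with at least 2, 289 pointed into the desert (45.3%, exact interval 41.4 to 49.3). With replicate 1 left out it was 47.8%, and with replicate 2 left out 47.6%, and both intervals then included 50%.

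**Figure D3:**
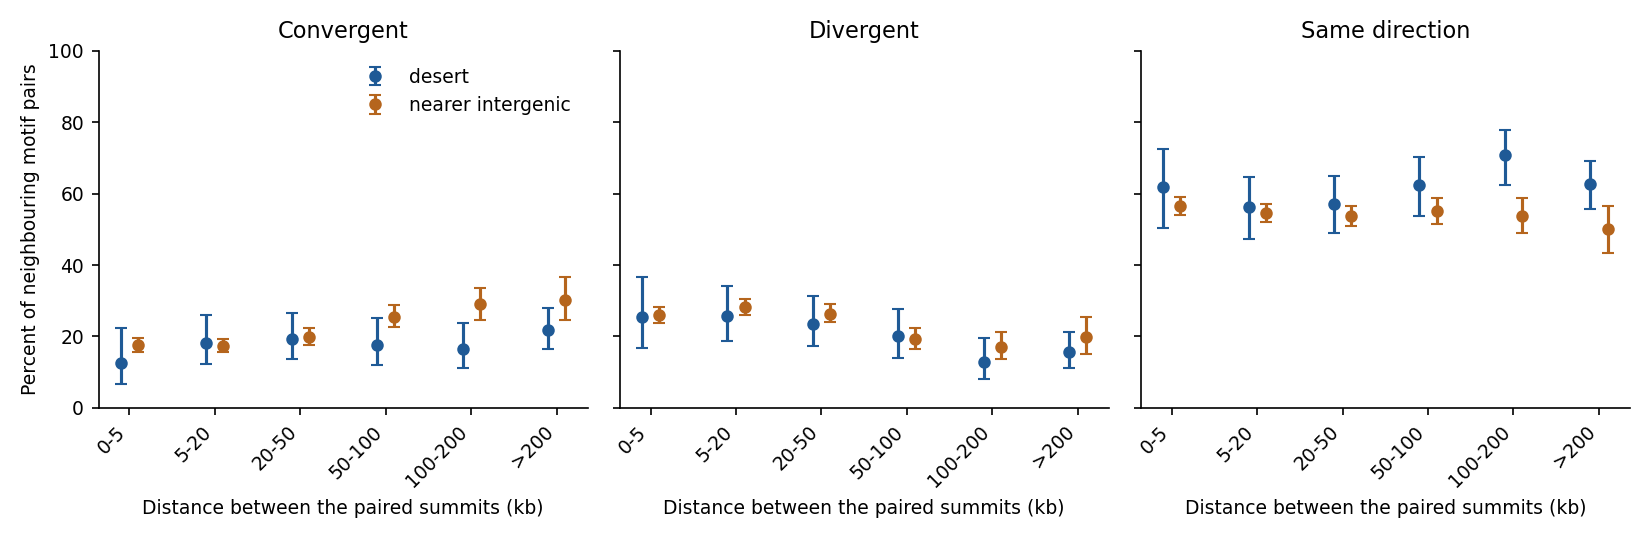
Percentage of neighbouring motif pairs that are convergent, divergent or in the same direction (y axis) by the distance between their summits (x axis, kb), for desert pairs in blue and nearer intergenic pairs in orange, with 95% Wilson intervals. The classes are furthest apart at 100 to 200 kb, where 16.5% of desert and 29.0% of nearer pairs are convergent.

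Desert peaks were spread unevenly over the deserts. Between neighbouring coding starts, or a start and a chromosome end, there were 826 intervals with eligible sequence, and 574 of them (69.5%) held at least 1 desert peak. In 160 there was exactly 1, and 36 intervals with 10 or more held 479 of the 2254 peaks. Most peaks, 22, lay between Tmem132b and Tmem132c, a pair of genes for neural membrane proteins, in 0.727 Mb of eligible sequence, and 18 of them held a core. Of the other intervals with the most peaks, Rps24-Zmiz1 had 20 in 0.368 Mb, Mki67-Mgmt and Vrk1-3110018I06Rik 18 each, Cdh26-Cdh4 17 and Matn1-Ptpru 16. Their share with a core was uneven, with 6 of 18 peaks in Vrk1-3110018I06Rik and 11 of 16 in Matn1-Ptpru. The largest deserts were not the richest. Over 57 intervals with 1 Mb or more of eligible sequence the median density was 4.25 peaks per Mb and the highest 16.2, and 1 held no desert peak. That was the interval between Cox7c and Edil3, at 2.77 Mb also the longest empty one between coding starts.

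Some long deserts carried cores in only 1 direction. These were picked after the strands were seen and are given without a test. All 6 oriented cores between Olfm4 and Pcdh17 and all 5 between Stim2 and Pcdh7 were on the plus strand. All 8 between Khdrbs3 and Fam135b and all 6 between Flrt2 and Galc were on the minus strand. Over all 1464 desert cores, here with those whose best matches tied between strands, 50.8% were on the plus strand (48.2 to 53.3).

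**Figure D4:**
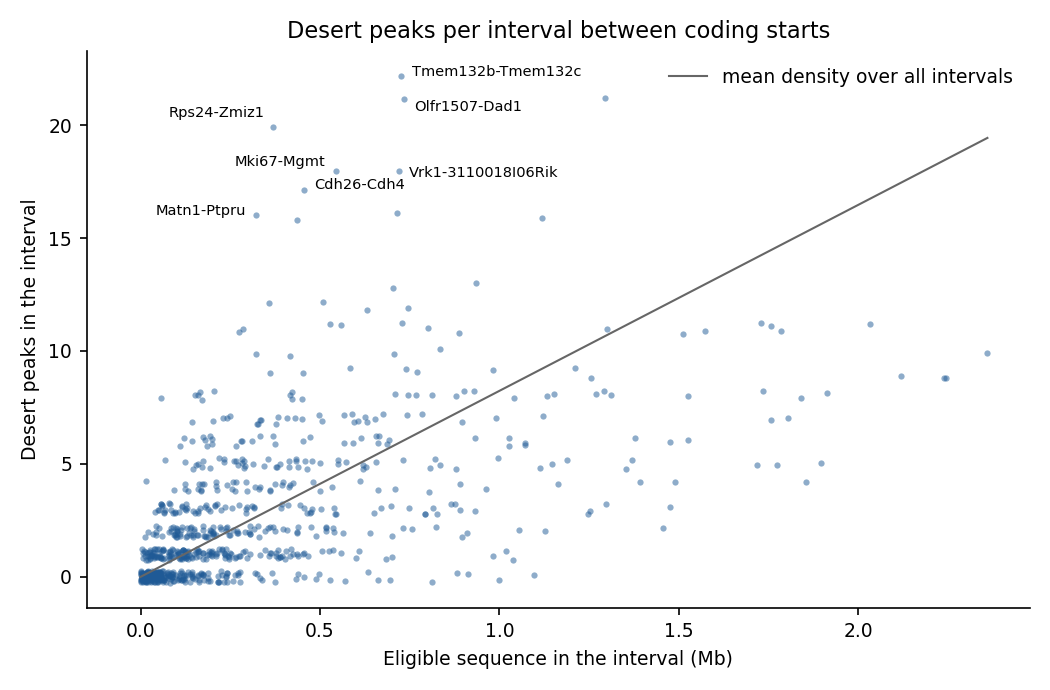
Each point is 1 interval between neighbouring coding starts, with its eligible sequence in Mb on the x axis and its number of desert peaks on the y axis (points moved up or down slightly to separate them); the line is the mean density over all intervals. The named intervals, with 16 to 22 peaks, all lie above the line.

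In 3 intervals the label of gene desert did not hold. The rule measures distance from protein-coding starts, and the annotation gives the gene segments of antigen receptors, which are joined by recombination in lymphocytes, a biotype of their own. The 3 intervals together held 44 desert peaks, 1.95% of the total. Among them, Olfr1507-Dad1 (T cell receptor alpha and delta, 201 annotated receptor genes and pseudogenes) held 21 and Adam6a-Zfp386 (immunoglobulin heavy chain, 197) held 2. A core was found in 38 of the 44 (86.4%, 73.3 to 93.6), against 64.5% of the other 2210 desert peaks (62.5 to 66.5), a difference of 21.8 points (8.62 to 29.3). The median signal of the 44 was 55.4, against 60.7. Leaving out these intervals gave a core difference of -2.74 points to nearer peaks (-4.87 to -0.647) and a same-direction difference of 6.88 points (3.13 to 10.5).

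In the T cell receptor interval 20 of 21 summits had a variable segment as their nearest gene, at 0.048 to 3.11 kb and a median of 0.226 kb, and 20 were in the strongest peaks of both libraries. Of its 17 cores 15 were on the plus strand. Most of these cores were distinct, with 15 sequences among the 17. The following lines set copies of the same segment family side by side, with other peaks between some of them on the chromosome. They were chosen after their values were seen.
Trav3-3, T cell receptor, plus strand: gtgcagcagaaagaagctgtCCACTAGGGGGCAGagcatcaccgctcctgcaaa
Trav3-4, T cell receptor, plus strand: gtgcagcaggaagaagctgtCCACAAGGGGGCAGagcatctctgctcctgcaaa
Trav16d-dv11, T cell receptor, plus strand: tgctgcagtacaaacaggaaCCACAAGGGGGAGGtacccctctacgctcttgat
Trav16n, T cell receptor, plus strand: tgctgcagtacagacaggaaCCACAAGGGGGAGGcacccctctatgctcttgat
Ighv11-1, immunoglobulin heavy chain, minus strand: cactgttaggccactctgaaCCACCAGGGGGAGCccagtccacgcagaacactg
Ighv11-2, immunoglobulin heavy chain, minus strand: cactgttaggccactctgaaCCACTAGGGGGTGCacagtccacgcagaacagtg

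The peak at Trav3-3 (chr14:53665838-53665940) had a signal of 101.2 and that at Trav3-4 (chr14:53776828-53776986) one of 168. The Trav16d-dv11 and Trav16n sites, with the same core, had 92.6 and 66.3. The heavy chain sites had 89.3 at Ighv11-1 and 43.5 at Ighv11-2. The strongest peak of the T cell receptor interval, at chr14:53804298-53804546, had a signal of 314 (185 in replicate 1 and 132 in replicate 2). Reads from near-identical segments can be placed on more than 1 copy, and the treatment of such reads in the alignment is not known here.

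The coding genes nearest to desert peaks were 795 of 20780 on these chromosomes (3.83%). Which genes border deserts follows from gene spacing, so the shares of gene families describe the neighbourhood of the desert peaks and not a preference of CTCF. Of 33 cadherins and unclustered protocadherins, which hold cells together, 20 were nearest to at least 1 desert peak. Together they were nearest to 91 desert peaks (4.04%, 3.30 to 4.93), and to 0.408% of nearer intergenic peaks. Cdh26 had 10 such peaks with signals from 28.6 to 339, Cdh9 had 8 from 19.1 to 203 with 7 cores, and Cdh11 and Cdh20 had 7 each. Contactins, contactin-associated proteins and teneurins, which act in axon and synapse adhesion, were nearest to 31 desert peaks (1.38% against 0.144% of nearer peaks, 9 of 16 genes), with 7 at Tenm3 from 23.2 to 100 and 6 at Tenm4. Axon guidance genes were nearest to 36 (1.60% against 0.661%, 12 of 68 genes), and Robo2, a receptor for the guidance cue Slit, had 8, of which 7 held a core. Leucine-rich synaptic adhesion genes were nearest to 17 (0.754% against 0.213%), with 5 at Slitrk6, and glutamate, GABA and glycine receptor genes to 14 (0.621% against 0.287%), with 3 at Grin2a.

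Developmental transcription factor genes also bordered deserts. SOX, PAX, FOX and POU genes were nearest to 39 desert peaks (1.73%, against 0.931% of nearer peaks, 13 of 82 genes). Sox9, a regulator of glia and cartilage, had 7 with signals from 23.8 to 156, at 245 to 679 kb from its start. Foxa2, a floor plate factor, had 6 with a median of 165 and a highest value of 318, and 5 of them held a core. By contrast the 4 peaks at Sox11, a factor of newborn neurons, had signals of 18.9 to 48.6 and no core. The group of nuclear receptor, teashirt, Sall and Zfhx genes was nearest to 32 (1.42% against 0.178%, 10 of 22 genes). There Nr2f2 and Sall1 had 7 each, with 1 and 4 cores. Homeobox genes of the LIM, Iroquois, NK and TALE classes were nearest to 27 (1.20% against 0.557%, 9 of 41 genes), with 5 at Nkx6-1 from 30.4 to 250.3 and 4 at Irx1, which include the signal of 458 given above. Basic helix-loop-helix genes were nearest to 3 (0.133% against 0.414%), 1 each at Hes1, Id2 and Id4, and chemosensory receptor genes to 6 (0.266% against 1.00%), 5 of them at Olfr1507 on the border of the T cell receptor interval.

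Desert peaks lay far from annotated genes of any kind, at a median of 39.3 kb against 5.84 kb for nearer intergenic peaks. The rule keeps desert summits outside genes and more than 200 kb from coding starts. The median distance, and the gene types and 10 kb shares that follow, are therefore set in part by the rule. The nearest gene was a processed pseudogene for 769 desert peaks (34.1%, against 12.4% of nearer peaks) and a lincRNA for 753 (33.4%, against 14.1%), and it was protein-coding for 125 (5.55%, against 59.2%). Any gene lay within 10 kb of 406 desert peaks (18.0%, 16.5 to 19.7), against 62.9% of nearer peaks. The third strongest desert peak was 0.222 kb from the lincRNA gene Gm831. By chromosome, density ran from 5.35 peaks per Mb on chromosome 10 (exact Poisson interval 4.16 to 6.77) to 11.2 on chromosome 9 (9.17 to 13.6), and the share with a core from 55.2% on chromosome 8 to 72.2% on chromosome 6.

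The farthest desert peak from a coding start, at chr14:91014742-91015061 between the protocadherin genes Pcdh20 and Pcdh9, lay 2544 kb from Pcdh20. Its signal was 109 (55.1 in replicate 1 and 51.2 in replicate 2), above the desert median, and it held no core. The peaks closest to the 200 kb limit were at 200.2 kb from Bnc2 (signal 33.7) and 200.6 kb from Mdga2 (30.5), and those just outside at 199.9 kb from Rab11fip2 (273) and 199.9 kb from Sp3 (55.4). The weakest desert peaks, with signals of 7.04, 7.44 and 7.53 on chromosomes 3, 17 and 11, each had another summit at most 0.203 kb away. They held no core, and the library peaks that overlap them can belong to the neighbouring summit. The fourth strongest desert peak, with a signal of 506 between Sall3 and Galr1, was the strongest without a core. Its sequence is not shown.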

How the data were processed

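Peak lists in the narrowPeak layout on mm10 were used as the authors deposited them: 1 list of 300000 peaks per library, a pooled list of 251251 and the optimal (62686) and conservative (59979) IDR sets, each derived from library and control alignments per the deposited file lists. The deposited signal value is a score whose scale is not described. Aligner, peak caller and IDR threshold were not given in the sources used here. Depth is unknown. Control alignments were not used here.

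Summits on chromosomes 1 to 19 were placed on GENCODE M21 genes and on the GRCm38 sequence from RefSeq, whose soft-masked letters cover 33.5% of sequenced autosomal bases and may differ from other mm10 masks. Cores were searched by consensus. Cores whose best matches tied between strands were left out of pairs, outermost cores and strand counts per interval, but not of the plus-strand share over all desert cores. Shares have Wilson intervals, differences Newcombe intervals, densities exact Poisson and ratios exact binomial intervals (Python 3.11.15, scipy 1.17.1, statsmodels 0.14.6), and a difference was called where its interval left out 0. Differences within deciles or bins weight each by its desert peaks, with normal intervals. The functions were tested on simulated data. Regions named were the 12 strongest, the 3 strongest without a core, the 3 weakest, the farthest, the most isolated and those at the limit, the 8 intervals with most peaks and the longest empty one, and up to 4 genes per family. Some members that this choice would name are left out. Members and lists were chosen with earlier results of these data known. Alternatives were other limits, IDR sets, windows, mismatches and single libraries.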

Additional observations from a re-analysis of the deposited data

How the results depend on the processing

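Of 138 alternative values, 107 kept the direction, the side of the call and, for counts, a size within 1.5 times. These include 10 from merging summits under 150 bp apart, which could change nothing because no summits lay that close. The number of desert peaks was 4109 with a limit of 100 kb, 582 with 500 kb and 998 in the stronger part of the optimal set (signal above its autosomal median). The core difference of -2.31 points lost its call with a limit of 500 kb (-2.64), in the stronger part (-0.472) and with 1 library (-1.92 to -1.62), and it turned positive within deciles of signal (5.86, and 1.34 and 0.843 with nearer peaks over 1 kb or over 50 kb from a coding start only). The core difference was larger and kept its call within deciles of local GC (-7.05) and with at most 1 mismatch (-6.73). The same held against nearer peaks over 1 kb (-6.73) or 50 to 200 kb (-3.29) from a coding start. Within deciles of signal the difference in library overlap was 0.949, with an interval that includes 0, that in the conservative set 1.89 and that in pooled candidates -0.0191. In the stronger part, where nearly all peaks of both classes pass, the first of these was 0.0376 and the second 0.0282. The convergent difference was -0.452 to 0.241 with 1 library, and it was called only within bins of pair distance: -5.88 with all pairs, -9.16 and -5.36 with at most 1 or 3 mismatches, -3.49 and -5.04 in replicate 1 or 2 alone, and -5.80 without the antigen receptor intervals. The same-direction difference lost its call against peaks 50 to 200 kb from a coding start (3.06, and 2.55 within bins). The share of outermost cores pointing inwards lost its call at 100 kb (47.7%), at 500 kb (48.3%), in the conservative set (46.2%), with masked summits kept (47.1%), with 3 mismatches (47.3%) and with 1 library (47.6% to 47.8%). The cause of these changes was not tested. The density ratio, the difference in signal and that in isolation kept their calls under every alternative run. The stratified comparisons, the same-direction pairs, the single-library signal values and the comparisons without antigen receptor intervals were added after the data were seen. So were the comparisons with only nearer peaks or bases over 1 kb or 50 to 200 kb from a coding start. The signal difference among peaks with a core was also added then. Unknown depth limits what can be said of weak peaks, and both libraries are labelled as the same pool.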
